A study of Mus musculus with 12 samples.

Results

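DNA methylation and its removal were followed through the transcripts of 9 genes, Dnmt1, Uhrf1, Dnmt3a, Dnmt3b, Dnmt3l, Tet1, Tet2, Tet3 and Tdg, in germ cells and somatic cells of the fetal mouse ovary. The genes were taken by symbol from a table of 54532 genes, of which 36214 had at least 1 count, and each symbol matched 1 row. All groups came from female embryos of the strain Tg(Pou5f1-EGFP)2Mnn at E15.5 (E, embryonic day), in which green fluorescent protein (GFP) under Pou5f1 (OCT4) regulatory sequence marks germ cells. Pregnant dams had received 10 µg of dexamethasone (dex, a synthetic ligand of the glucocorticoid receptor, GR) per g of body weight, or saline, once a day from E12.5 to E15.5. Ovarian cells were then sorted for bulk RNA-seq, which gave 4 groups of 3 libraries: GFP-positive germ cells after dex, GFP-positive germ cells after saline, and GFP-negative somatic cells after each treatment. Each library held cells of ovaries pooled over several litters, and the somatic fraction was every GFP-negative cell, so a change in the makeup of that fraction and a change of RNA per cell cannot be told apart.

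Methylation of cytosine at CG dinucleotides is copied to the new DNA strand by DNMT1, which UHRF1 recruits to hemimethylated sites. DNMT3A and DNMT3B place new methyl groups, and DNMT3L, which has no catalytic activity of its own, stimulates them. The TET enzymes oxidize 5-methylcytosine, and TDG excises the more oxidized forms so that base excision repair can put back an unmethylated cytosine. Fetal germ cells are known for a genome-wide loss of methylation before and during sex determination, and female germ cells regain theirs only in growing oocytes after birth. At E15.5 the germ cells of the ovary are in meiotic prophase.

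The sequence just before a transcription start was examined because methylation acts on CG dinucleotides, and because dex acts through a receptor that binds DNA. RefSeq (GRCm38.p6) listed 16 starts for the 9 genes. Windows ran from 250 bases before to 50 after each start. The densest in CG was Tet2 with 57 sites, more than 99.8% of 32851 windows of the same length. The sparsest was the first Dnmt1 start with 2 sites, while the other Dnmt1 starts held 12 and 33. Dnmt3l held 6, 4 and 3 at its 3 starts. The median over all windows was 7, with quartiles of 3 and 20. Of 4 stretches shown here, the first belongs to Tet1, the gene whose level moved after dex, the next 2 to Uhrf1 and Dnmt1, the pair that was higher in germ cells, and the last to Dnmt3l, the gene with next to no reads. Each one ends at the base before the start, is cut off at the nearest annotated exon, and has its CG sites in capitals.

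Tet1, chr10:62887325-62887412, minus strand: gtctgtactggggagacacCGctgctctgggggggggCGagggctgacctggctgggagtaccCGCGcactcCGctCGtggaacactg

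Uhrf1, the second RefSeq start, chr17:56304063-56304312, plus strand: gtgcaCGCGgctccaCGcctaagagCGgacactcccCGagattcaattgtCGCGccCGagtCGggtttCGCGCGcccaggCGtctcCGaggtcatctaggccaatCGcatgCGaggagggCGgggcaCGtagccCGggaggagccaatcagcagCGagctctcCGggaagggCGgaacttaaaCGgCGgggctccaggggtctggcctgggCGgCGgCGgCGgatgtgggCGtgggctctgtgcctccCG

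Dnmt1, the third RefSeq start, chr9:20952624-20952707, minus strand: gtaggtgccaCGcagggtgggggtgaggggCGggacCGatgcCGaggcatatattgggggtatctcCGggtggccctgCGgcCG

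Dnmt3l, the first RefSeq start, chr10:78042136-78042286, plus strand: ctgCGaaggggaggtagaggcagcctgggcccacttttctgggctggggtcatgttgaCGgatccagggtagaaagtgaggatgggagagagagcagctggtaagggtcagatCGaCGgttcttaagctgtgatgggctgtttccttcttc

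The stretches held 6 CG sites in 88 bases for Tet1, 30 in 250 for Uhrf1, 7 in 84 for Dnmt1 and 4 in 151 for Dnmt3l. Motifs were searched on both strands of the 300-base windows. The GR palindrome (AGAACA, 3 free bases, TGTTCT) was in none of the 16 windows of these genes and in 3 of all 32851 (0.00913%). Its half-site AGAACA lay in 1 window each of Dnmt1 and Tet2, against 19% of all windows. Sites for E2F, the factor of S-phase genes, were searched as TTTCGCGC and TTTGGCGC, which 0.813% of all windows held. One began 185 bases before the second Uhrf1 start, within the sequence above, and a pair lay in the third Dnmt1 window. The E-box CACGTG, in 7.15% of all windows, was found in 1 window each of Dnmt3a, Dnmt3l and Tdg. A match of letters is a description and does not show binding, and a motif can lie outside these windows.

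Depth was similar across libraries, with 14658503 to 17616664 counts in germ cells and 15161804 to 18245507 in somatic cells. Levels of 1 gene are given as CPM, the usual library-scaled count, here with TMM scaling. A floor of 3 counts came to 0.169 to 0.201 CPM. Levels of different genes are compared only in FPKM, the deposited values scaled to exon length and depth. Markers followed the sort with 2 exceptions, Dnd1, the only 1 of 10 germ cell markers that was lower in saline germ cells (log2 difference -0.71), and Tek, the only 1 of 6 endothelial markers that was higher (log2 difference 1.16). The summed level of 10 germ cell markers was 2876 to 3446 CPM in germ cells and 6.73 to 25.0 CPM in somatic cells, and that of 10 pregranulosa markers was 31.7 to 135 CPM in germ cells and 1379 to 1714 CPM in somatic cells. In the germ cell libraries the somatic lists stood at a share of their somatic level that depended on the list, 2.13% to 9.03% for the pregranulosa markers, and 0.539% to 1.08% for 8 stromal markers. Each share is of the somatic mean of the same treatment. The macrophage markers stood at 3.12% to 6.55% in saline (9 genes) and 8.59% to 17.4% in dex germ cell libraries (8 genes). Their summed germ cell level overlapped between treatments, at 5.686 to 11.95 CPM after saline and 7.5 to 14.87 CPM after dex. The somatic sum they are set against was 154 to 206 CPM after saline and 44.8 to 109 CPM after dex. Perivascular markers were at 0.98% to 1.44% and erythroid markers at 0.106% to 0.521%. For the endothelial list, whose germ cell sum is mostly Tek, the median over its 6 genes was 6.59% to 10.8%.

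**Figure D1:**
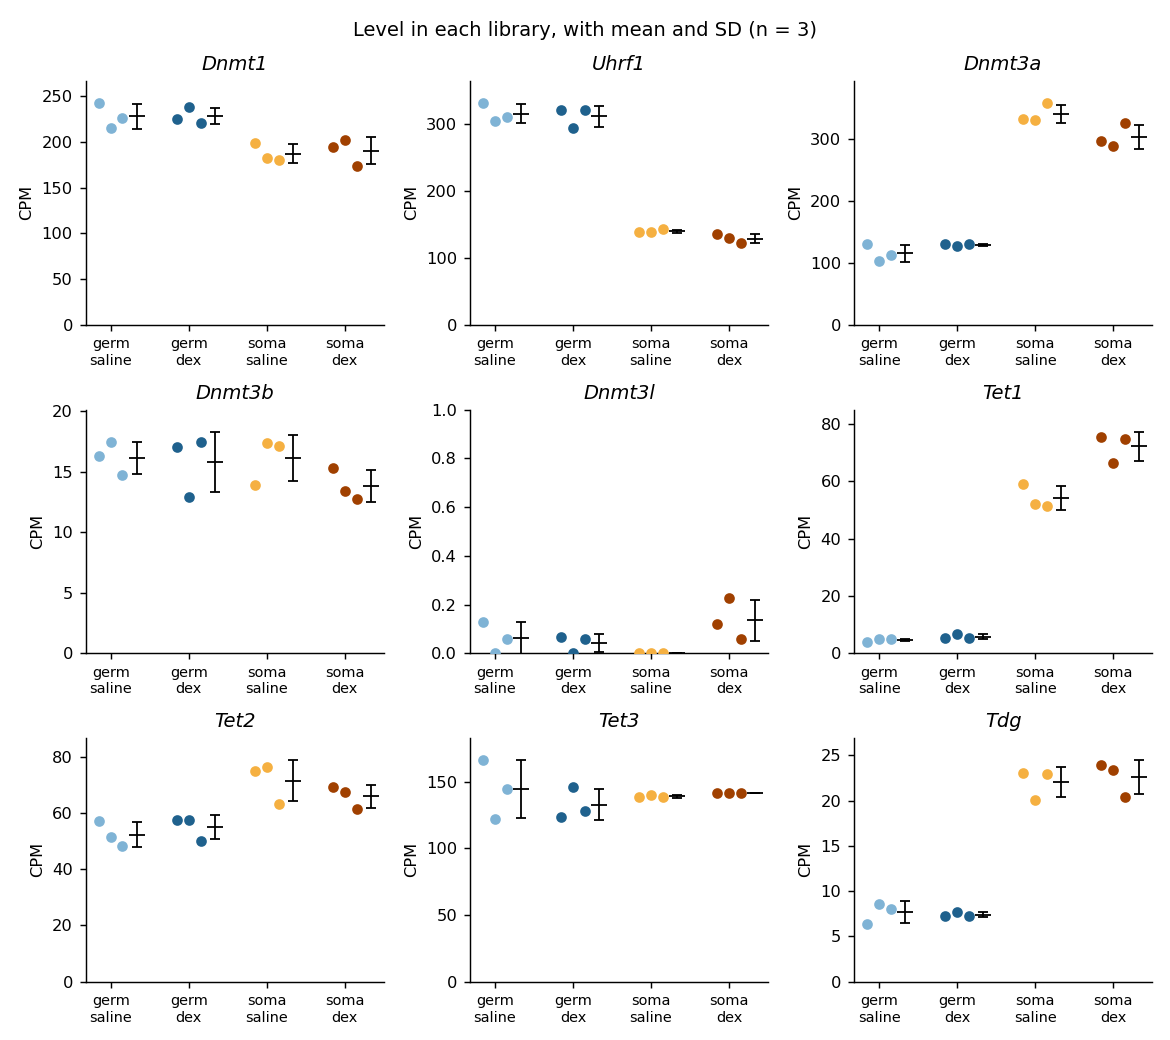
Level of each gene in CPM (y axis, from 0, a scale of its own in each panel) in the 12 libraries, grouped by sorted cells and treatment on the x axis, with 1 point per library and the mean ± SD (n = 3) to the right of the points. Germ cells sit above somatic cells for Uhrf1 and far below for Tet1, Dnmt3a and Tdg, and the 3 dex somatic libraries sit above the 3 saline ones for Tet1.

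Germ cells and somatic cells were compared first, to show which enzymes each population expresses. Transcripts of the maintenance pair were higher in germ cells, and those of Dnmt3a, Tet1, Tet2 and Tdg were lower. Tet1 stood farthest apart, 11.6-fold lower in saline germ cells, followed by Dnmt3a (2.93-fold lower), Tdg (2.84-fold lower) and Uhrf1 (2.27-fold higher). A gene was called where the quasi-likelihood test of edgeR gave a p, adjusted by Benjamini and Hochberg, no larger than 0.05. In the saline libraries this held for 86.1% of 17941 genes, 43.1% higher in germ cells and 42.9% lower. Of the 8 enzymes tested, 2 were higher, 4 were lower and 2 were not called, so a call in itself did not set them apart. The median absolute log2 difference was 0.81 over the 8, against 1.60 over all genes. In the dex libraries, which share no sample with the saline ones, 84.3% of 18171 genes were called (42% higher, 42.2% lower), and the same 6 enzymes were called in the same directions.

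Per length, the maintenance genes led in both populations. Dnmt1 (chromosome 9, 20907209 to 20959888, minus strand, GRCm38) was at 243, 215 and 227 CPM in the saline germ cell libraries and at 199, 183 and 180 CPM in the saline somatic libraries. The groups did not overlap, but the gap was small, a log2 difference of 0.29 (SE 0.07, edgeR adjusted p = 0.00159), which was 1.23-fold. Uhrf1 (chromosome 17, 56303321 to 56323486, plus strand) was at 331, 305 and 310 CPM in saline germ cells and at 139, 138 and 142 CPM in saline somatic cells. Its log2 difference was 1.18 (SE 0.07, edgeR adjusted p = 3e-10), and it was 1.26 (edgeR adjusted p = 2.19e-08) in the dex libraries. Per length, Uhrf1 was the highest of the 9 genes in every group, at 74.8 ± 3.30 FPKM in saline germ cells and 31.9 ± 0.554 FPKM in saline somatic cells (SD, n = 3). Dnmt1 came second in every group, at 31.2 ± 1.92 and 24.7 ± 1.38 FPKM. The order of the genes and the family shares below depend on the exon lengths used, such as 4259 bases for Uhrf1, 7377 for Dnmt1 and 16642 for Dnmt3a. The ratio of Uhrf1 to Dnmt1 FPKM was 2.37, 2.45 and 2.37 in the saline germ cell libraries and 1.21, 1.31 and 1.37 in the saline somatic libraries, without overlap (two-sided exact permutation p = 0.1, the smallest that 3 against 3 allow).

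The de novo methyltransferases differed from each other. Dnmt3a (chromosome 12, 3806007 to 3914443, plus strand) was at 130, 103 and 113 CPM in saline germ cells and at 333, 331 and 358 CPM in saline somatic cells. The log2 difference was -1.55 (SE 0.09, edgeR adjusted p = 1.86e-10) in saline and -1.25 (SE 0.07, edgeR adjusted p = 1.93e-08) in dex libraries. Dnmt3b (chromosome 2, 153649450 to 153687730, plus strand) was at 16.3, 17.4 and 14.7 CPM in saline germ cells and 13.9, 17.3 and 17.2 CPM in saline somatic cells. Those groups overlapped, and the log2 difference of 0.01 had a 95% confidence interval (CI) from -0.28 to 0.31. Dnmt3l (chromosome 10, 78041947 to 78063622, plus strand) had 0 to 2 counts in each germ cell library, 1 to 4 in each dex somatic library and none in the 3 saline somatic libraries. It was removed by the low-count filter in every comparison, and at this depth its expression was not detectable above the floor in 11 of the 12 libraries, the exception having 4 counts.

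In shares of the summed DNMT FPKM (Dnmt1, Dnmt3a, Dnmt3b and Dnmt3l), Dnmt1 made up 75.3% ± 0.582 in saline germ cells and 51.8% ± 2.36 in saline somatic cells (SD, n = 3). Dnmt3a made up 16.9% ± 0.924 and 41.8% ± 1.72, and Dnmt3b 7.73% ± 0.925 and 6.45% ± 0.855. The summed level itself was close, 41.5 ± 2.68 FPKM in germ cells and 47.6 ± 0.949 FPKM in somatic cells, though the groups did not overlap (two-sided exact permutation p = 0.1).

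The dioxygenases also split. Tet1 (chromosome 10, 62804570 to 62908996, minus strand) was at 4.07, 4.90 and 4.91 CPM in saline germ cells and at 59.0, 52.0 and 51.4 CPM in saline somatic cells. Among the saline libraries every germ cell library was more than 10-fold under every somatic library. The log2 difference was -3.53 (SE 0.13, edgeR adjusted p = 1.2e-12) in saline and -3.66 (SE 0.13, edgeR adjusted p = 5.04e-10) in dex libraries. The germ cell level was 8.55% of the somatic level in saline and 8.02% in dex libraries. Beside it, the pregranulosa markers were at 2.40% to 4.93% in saline and 2.13% to 9.03% in dex germ cell libraries. The macrophage markers were at 3.12% to 6.55% in saline and 8.59% to 17.4% in dex libraries. Stromal markers were at 0.539% to 1.08%, perivascular markers at 0.98% to 1.44% and erythroid markers at 0.106% to 0.521% over both treatments. The endothelial median was 6.59% to 10.8%. The part of somatic RNA in the germ cell reads of Tet1 was not tested. Tet2 (chromosome 3, 133463679 to 133545139, minus strand) was at 57.2, 51.3 and 48.3 CPM in saline germ cells and at 74.9, 76.3 and 63.0 CPM in saline somatic cells. Its log2 difference was -0.44 (SE 0.09, edgeR adjusted p = 0.000393) in saline and -0.28 (SE 0.09, edgeR adjusted p = 0.00988) in dex libraries. That dex call was lost in DESeq2 (-0.20, DESeq2 adjusted p = 0.083) and without dex germ cell replicate 3 (-0.19, edgeR adjusted p = 0.0719). Tet3 (chromosome 6, 83362373 to 83459084, minus strand) was at 166, 122 and 145 CPM in saline germ cells, a spread that enclosed the 138, 140 and 139 CPM of saline somatic cells. The log2 difference of Tet3 was 0.06 (95% CI -0.13 to 0.26) and was not called.

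Tet3 was the main TET transcript of germ cells, with 71.6% ± 2.63 of the summed TET FPKM in the saline libraries (SD, n = 3). Tet2 held 25.8% ± 2.28 and Tet1 2.53% ± 0.531. In saline somatic cells the shares were 51.9% ± 1.98 for Tet3, 26.3% ± 1.80 for Tet2 and 21.8% ± 1.21 for Tet1. The summed TET level was 12.2 ± 1.49 FPKM in saline germ cells and 15.6 ± 0.603 FPKM in saline somatic cells, without overlap (two-sided exact permutation p = 0.1).

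**Figure D2:**
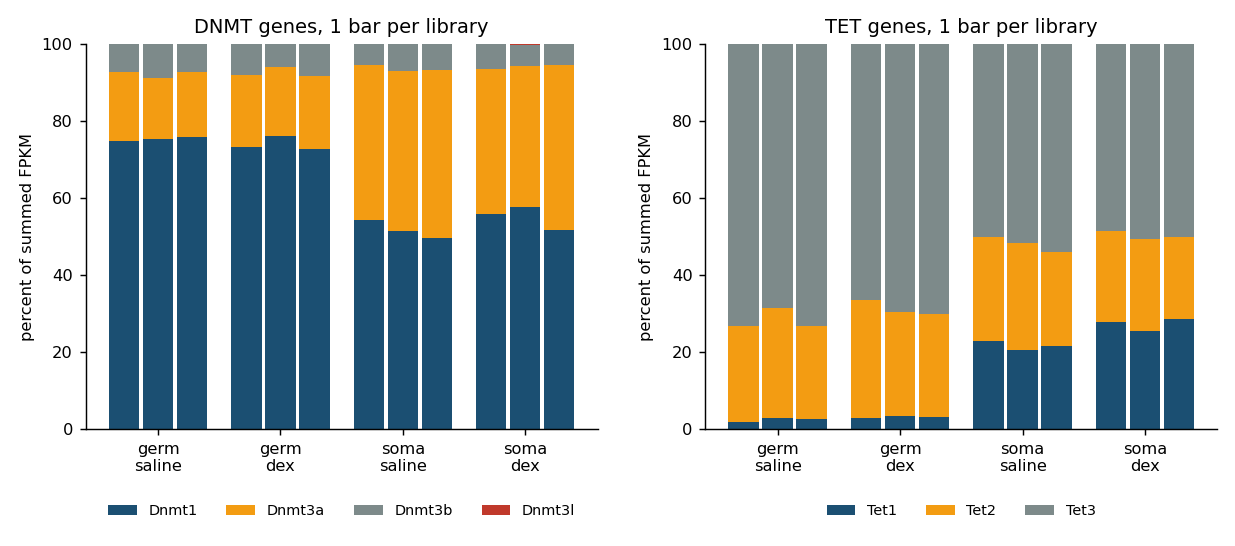
Share of each gene in the summed FPKM of its family (y axis, percent) with 1 bar per library, for the DNMT genes on the left and the TET genes on the right, in the 4 groups along the x axis. Dnmt3a takes 16.9% of the DNMT sum in saline germ cells and 41.8% in saline somatic cells, and Tet1 takes 2.53% and 21.8% of the TET sum.

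Tdg (chromosome 10, 82629828 to 82650799, plus strand), the glycosylase, was at 6.33, 8.63 and 8.06 CPM in saline germ cells and at 23.0, 20.1 and 22.9 CPM in saline somatic cells. The groups were far apart, with a log2 difference of -1.51 (SE 0.15, edgeR adjusted p = 2.25e-07) in saline and -1.63 (SE 0.14, edgeR adjusted p = 8.05e-07) in dex libraries. Of its 5374 exonic bases, 367 are shared with Glt8d2 on the other strand. Glt8d2 had 249 to 437 counts per library against 98 to 415 for Tdg. The sources used here do not say whether counting used strand, so reads in the shared bases cannot be assigned to 1 gene. Dnmt3a shared 133 bases with its antisense gene Dnmt3aos, which had at most 6 counts per library. Dnmt3l shared 67 bases with Aire on the other strand, which had 0 to 63 counts per library. Tet2 shared 43 bases with Gm42567 on the other strand, which had at most 26 counts. The part of Aire in the few Dnmt3l reads was not tested.

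Per length, the order of the 9 genes in saline germ cells was Uhrf1, Dnmt1, Tet3, Dnmt3a, Dnmt3b, Tet2, Tdg, Tet1 and Dnmt3l. The libraries of Tet3 (7.36 to 10.0 FPKM) and Dnmt3a (6.22 to 7.89 FPKM) overlapped, as did those of Dnmt3b and Tet2, and the other neighbours were separate. In saline somatic cells the order was Uhrf1, Dnmt1, Dnmt3a, Tet3, Tet2, Tdg, Tet1, Dnmt3b and Dnmt3l. There, Tet2, Tdg, Tet1 and Dnmt3b each overlapped with the next and lay between 2.65 and 4.38 FPKM. After dex, Tet1 moved ahead of Tdg and Tet2 in the order of somatic means, at 4.52 ± 0.296 FPKM (SD, n = 3) against 3.40 ± 0.271 FPKM in saline, with libraries that still overlapped those of Tdg.

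Dex and saline were then compared within somatic cells, to ask whether the levels of the enzymes differed there. Tet1 was 1.33-fold higher in the dex somatic libraries, and no other enzyme passed the test. Across 16556 genes tested, edgeR called 8.18%, and 4.81% were called higher, so 1 of 8 enzymes is near the background of all genes. Tet1 was at 59.0, 52.0 and 51.4 CPM after saline and at 75.6, 66.5 and 74.9 CPM after dex. All 3 dex libraries were above all 3 saline libraries, with a log2 fold change of 0.41 (SE 0.08, 95% CI 0.25 to 0.58, edgeR adjusted p = 0.00456). Under 13 alternatives, among them DESeq2, other scalings, other filters and the removal of each library in turn, the log2 fold change of Tet1 stayed between 0.37 and 0.47 and its adjusted p between 6.14e-05 and 0.0325. Its share of the somatic TET FPKM was 21.8% ± 1.21 after saline and 27.4% ± 1.56 after dex (SD, n = 3), again without overlap (two-sided exact permutation p = 0.1).

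The other enzymes of the somatic cells were not called. Dnmt3a was at 333, 331 and 358 CPM after saline and at 297, 289 and 326 CPM after dex. The dex libraries were all lower, but the log2 fold change of -0.17 (95% CI -0.31 to -0.03) was not called (edgeR adjusted p = 0.153), except when dex somatic replicate 3 was left out (-0.22, edgeR adjusted p = 0.0381). Uhrf1 was at 139, 138 and 142 CPM after saline and at 135, 129 and 122 CPM after dex, with a log2 fold change of -0.13 (95% CI -0.26 to 0.01). Tet3 hardly varied among libraries, from 138 to 140 CPM after saline and at 142 CPM in each of the 3 dex libraries. Dnmt1 (0.02), Dnmt3b (-0.23), Tet2 (-0.12) and Tdg (0.03) had log2 fold changes whose 95% CIs all included 0, the widest being that of Dnmt3b, from -0.52 to 0.07. The groups did not overlap for 4 of the 8 enzymes (Uhrf1, Dnmt3a, Tet1 and Tet3), against 25.4% of all genes tested.

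Markers of several cell types moved with treatment in the somatic fraction. All 9 macrophage markers had negative log2 fold changes and 5 were called, among them Csf1r (-1.31, edgeR adjusted p = 0.00634) and Adgre1 (-1.78, edgeR adjusted p = 0.00346), and the summed level of the 9 was 154 to 206 CPM after saline and 44.8 to 109 CPM after dex. Of 10 pregranulosa markers 1 was called, Wnt4 (log2 fold change -0.24, edgeR adjusted p = 0.0373), and their sum was 1598 to 1714 CPM after saline and 1379 to 1689 CPM after dex. Stromal Pdgfra (log2 fold change 0.62, edgeR adjusted p = 0.000101) and perivascular Cspg4 (1.06, edgeR adjusted p = 2.86e-05) were the only calls among 8 and 5 markers of those lists. Of 6 endothelial markers 2 were called, in opposite directions, Cdh5 (-0.50, edgeR adjusted p = 0.00862) and Emcn (0.43, edgeR adjusted p = 0.0496). The summed level of each of these 3 lists overlapped between treatments. No erythroid marker was called, and their sum was 7388 to 12460 CPM after saline and 3312 to 16490 CPM after dex. The part of these shifts in the rise of Tet1 was not tested.

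In germ cells no enzyme passed the test after dex. Of 16857 genes tested, 35 were called by edgeR (0.208%, with 1963 at an unadjusted p under 0.05, and 159 called by DESeq2), and none of the 8 enzymes was among them by either tool. Tet1 was at 4.07, 4.90 and 4.91 CPM after saline and at 5.29, 6.85 and 5.25 CPM after dex. The groups were separate for Tet1 alone of the 8 enzymes, against 17.4% of all genes, and its log2 fold change of 0.33 had a wide 95% CI, from -0.11 to 0.77 (edgeR adjusted p = 0.566). The library highest in Tet1, dex replicate 2, was also the highest in the summed pregranulosa markers (135 CPM). Dex replicate 1, the lowest in that sum (31.7 CPM), was above dex replicate 3 and every saline library in Tet1. The pregranulosa sums were 39.6, 71.8 and 81.0 CPM after saline and 31.7, 135 and 98.2 CPM after dex. Their part in the Tet1 values was not tested. Dnmt3a was at 130, 103 and 113 CPM after saline and at 131, 127 and 130 CPM after dex. Saline replicate 1 lay among the dex libraries, and the log2 fold change was 0.17 (95% CI -0.0039 to 0.35, edgeR adjusted p = 0.44).

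For the abundant genes the intervals in germ cells were narrow. Dnmt1 had a log2 fold change of 0.01 (95% CI -0.13 to 0.15) and Uhrf1 one of -0.01 (95% CI -0.15 to 0.13). For Tet2 it was 0.08 (95% CI -0.12 to 0.28) and for Tet3 -0.11 (95% CI -0.33 to 0.11). Intervals were wider for the genes with few reads, Dnmt3b (-0.02, 95% CI -0.35 to 0.30) and Tdg (-0.05, 95% CI -0.43 to 0.34).

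**Figure D3:**
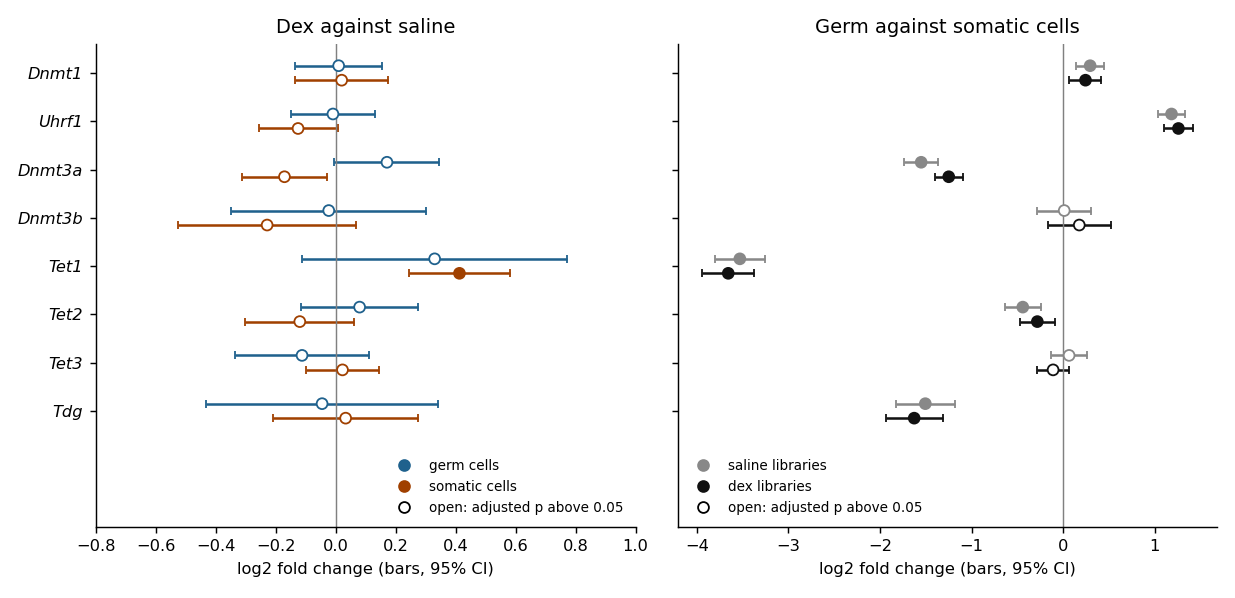
Log2 fold change (x axis) with its 95% CI for each of the 8 enzymes tested (y axis), for dex against saline in germ and somatic cells on the left and for germ against somatic cells in saline and dex libraries on the right. Filled points had an edgeR adjusted p of at most 0.05. On the left only Tet1 in somatic cells (0.41) is filled, and on the right Tet1 lies near -3.5 in both treatments.

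A test over all 12 libraries then asked whether dex acted differently on the enzymes of germ and somatic cells. Of 19390 genes, 1.62% were called, and none of the 8 enzymes was (unadjusted p under 0.05 for Dnmt3a alone, and 0 called in DESeq2). The difference for Tet1, germ cells minus somatic cells, was -0.10 (95% CI -0.48 to 0.28, edgeR adjusted p = 0.859), so the call in somatic cells alone does not show that Tet1 responded differently there. Dnmt3a, with log2 fold changes of 0.17 in germ cells and -0.17 in somatic cells and no call in either, had the largest difference in size, 0.33 (95% CI 0.09 to 0.57, edgeR adjusted p = 0.173).

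Genes that work with these enzymes were described in 7 lists by their counts. These are to be read against the shares of all genes given above, 8.18% called in somatic cells and 0.208% in germ cells after dex, and 43.1% higher and 42.9% lower in saline germ cells. Among 9 partners of maintenance methylation, none was called after dex in germ or somatic cells. Between cell types, 3 were higher and 4 lower in saline germ cells (all genes, 43.1% and 42.9%). Hells, a chromatin remodeler needed for methylation of repeats, was at 869 ± 29.5 CPM in saline germ cells against 57.0 ± 3.25 CPM in saline somatic cells (log2 difference 3.94, edgeR adjusted p = 5.43e-15). Cdca7, which recruits HELLS, went the other way, at 19.2 ± 1.46 and 64.7 ± 5.63 CPM (-1.74, edgeR adjusted p = 2.09e-10). Lig1, a DNA ligase of replication, was higher by 1.31 and Uhrf2, the paralog of Uhrf1, differed by -1.07 (edgeR adjusted p = 4.49e-09 and 1.39e-09).

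Of 8 readers of methylated CG, 1 was called in somatic cells after dex, near the 8.18% of all genes. Mbd1, a reader and transcriptional repressor, was at 98.2, 112 and 93.2 CPM after saline and at 136, 149 and 114 CPM after dex (log2 fold change 0.39, SE 0.10, edgeR adjusted p = 0.0239). The call was lost in 4 of 13 alternatives, all of them with 1 library left out (somatic dex replicate 1 or 2, somatic saline replicate 1 or 3, edgeR adjusted p up to 0.133). Between cell types, 3 readers were higher and 2 lower in saline germ cells (all genes, 43.1% and 42.9%), from Zbtb38 (log2 difference 1.35) and Mbd4 (0.95), a reader that is also a glycosylase, to Mbd2 (-0.81) and Zbtb4 (-0.72).

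Repair and deamination genes gave 1 call among 15 tested in somatic cells after dex, near the 8.18% of all genes. Gadd45g, a stress-response gene linked to demethylation, was at 28.3, 34.3 and 34.0 CPM in saline somatic cells and at 40.6, 39.9 and 46.1 CPM in dex somatic cells (log2 fold change 0.39, SE 0.10, edgeR adjusted p = 0.0301). The groups were separate, yet the call held in 6 of 13 alternatives. It was lost with library totals as the only scaling, in 1 fit over all 12 libraries, and when any 1 library but somatic dex replicate 1 was left out (edgeR adjusted p up to 0.142). In germ cells, 13 of the 15 had positive log2 fold changes, with a median of 0.17 against 0.01 over all genes and no call. Among somatic markers in the same test, 9 of 10 pregranulosa, 4 of 4 perivascular and 4 of 5 macrophage genes were also positive. Stromal (4 of 8), endothelial (2 of 4) and erythroid (1 of 4) markers were not mostly so. The part of somatic RNA in the repair values was not tested. Between cell types, 6 of 16 were higher and 8 lower in saline germ cells (all genes, 43.1% and 42.9%). The cytidine deaminase genes differed widely, Apobec3 at 0.854 ± 0.541 CPM in saline germ cells against 25.2 ± 2.99 CPM in saline somatic cells (log2 difference -4.82), and Apobec1 at 0.437 ± 0.0430 and 3.29 ± 0.419 CPM (-2.88). Apobec2 (2.03) and the glycosylase gene Neil2 (1.85) were higher in germ cells, both at low levels (0.698 ± 0.0520 and 4.71 ± 0.964 CPM in saline germ cells).

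Of the genes that target or protect methylation, 1 of 12 tested was called in somatic cells after dex, near the 8.18% of all genes. Cxxc5, which encodes a CXXC-domain protein that binds unmethylated CG, was at 49.8, 44.6 and 51.5 CPM after saline and at 34.7, 30.0 and 41.6 CPM after dex (log2 fold change -0.46, SE 0.11, edgeR adjusted p = 0.0187). It lost its call when somatic dex replicate 2, somatic saline replicate 1 or somatic saline replicate 3 was left out (edgeR adjusted p up to 0.091). Between cell types, Dppa3, a protector of 5-methylcytosine in the early embryo, had a level of 10.0 ± 4.84 CPM in saline germ cells but was at or under the floor of 3 counts in each somatic library. Kdm1b, a histone demethylase needed for imprints in oocytes, was at 115 ± 17.0 CPM against 21.6 ± 1.11 CPM (2.42). Zfp57, the imprint protector, was lower in germ cells, at 3.85 ± 1.29 CPM against 92.1 ± 7.10 CPM (-4.56), and Cxxc5 was lower too (log2 difference -1.08, edgeR adjusted p = 1.83e-07).

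None of the 9 methyl donor genes tested was called after dex in either cell type. Mat1a, the liver form of the S-adenosylmethionine synthetase gene, had a level of 2.70 ± 1.19 CPM in saline germ cells but was at or under the floor in each saline somatic library. Ahcyl2, an AHCY-like gene, was higher in saline germ cells by 1.96 on the log2 scale (edgeR adjusted p = 1.06e-11). Proliferation genes, listed because Dnmt1 and Uhrf1 rise in S phase, gave no call after dex among 15 in either cell type. They were split between the cell types, with 6 higher and 8 lower in saline germ cells (all genes, 43.1% and 42.9%), from Bub1 (3.44) and Mcm5 (1.37) to Tyms (-3.51) and Aurkb (-5.50).

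All 18 germline genes listed for promoters known to be methylated in somatic tissue were higher in saline germ cells (all genes, 43.1%). The list holds germline genes, several of them also germ cell markers above, so this direction follows from its choice. Rpl10l (54.0 ± 3.71 CPM) and Sohlh2 (121 ± 6.30 CPM) led, both at or under the floor in each saline somatic library. After dex this list had the largest median shift of the 7 in somatic cells. The 14 tested there were those left by the low-count filter on the same libraries, which a gene can pass through high values in 1 treatment. The count of positive values and the median below therefore depend in part on that filter. Of the 14, 12 had positive log2 fold changes, with a median of 0.65 against 0.00 over all genes, but 1 was called, near the 8.18% of all genes. That gene was Dazl, an RNA-binding protein of germ cells, at 1.195, 1.354 and 0.971 CPM after saline and at 12.9, 12.8 and 12.6 CPM after dex (log2 fold change 3.43, SE 0.21, edgeR adjusted p = 2.92e-07). The dex values were nearly equal among libraries and 10.8-fold above saline. In germ cells Dazl was at 1068, 1031 and 1118 CPM after saline and at 1017, 943 and 986 CPM after dex. Mov10l1, a piRNA pathway helicase, and Hormad1, a protein of meiotic chromosome axes, had somatic log2 fold changes of 1.78 and 1.41 that were not called (edgeR adjusted p = 0.0732 and 0.13), with levels of at most 1.97 and 1.90 CPM. The part of residual germ cell RNA in these somatic levels was not tested.

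Other germ cell transcripts were looked at beside Dazl. The summed level of the 10 germ cell markers, Dazl among them, was 6.73, 11.2 and 8.49 CPM in saline and 16.9, 24.8 and 25.0 CPM in dex somatic libraries. Of these sums, Dazl alone gave 1.195, 1.354 and 0.971 CPM after saline and 12.9, 12.8 and 12.6 CPM after dex. Most of the rise of the sum was thus that of Dazl, and the sum does not show how the other markers moved. Of the 6 markers tested in somatic cells, Dazl among them, 5 had positive log2 fold changes, with a median of 0.73. That count and median depend in part on the low-count filter as well. Pou5f1 and Dppa3 were at 0 in all 3 dex somatic libraries. Ddx4 (log2 fold change 0.65, edgeR adjusted p = 0.527), Sycp3 (0.84, edgeR adjusted p = 0.311) and Mael (0.82, edgeR adjusted p = 0.532) were not called. Of the 10 markers 6 are also on the germline list. In germ cells, 17 of the 18 germline genes had negative log2 fold changes after dex, none was called, and the median was -0.11 against 0.01 over all genes.

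**Figure D4:**
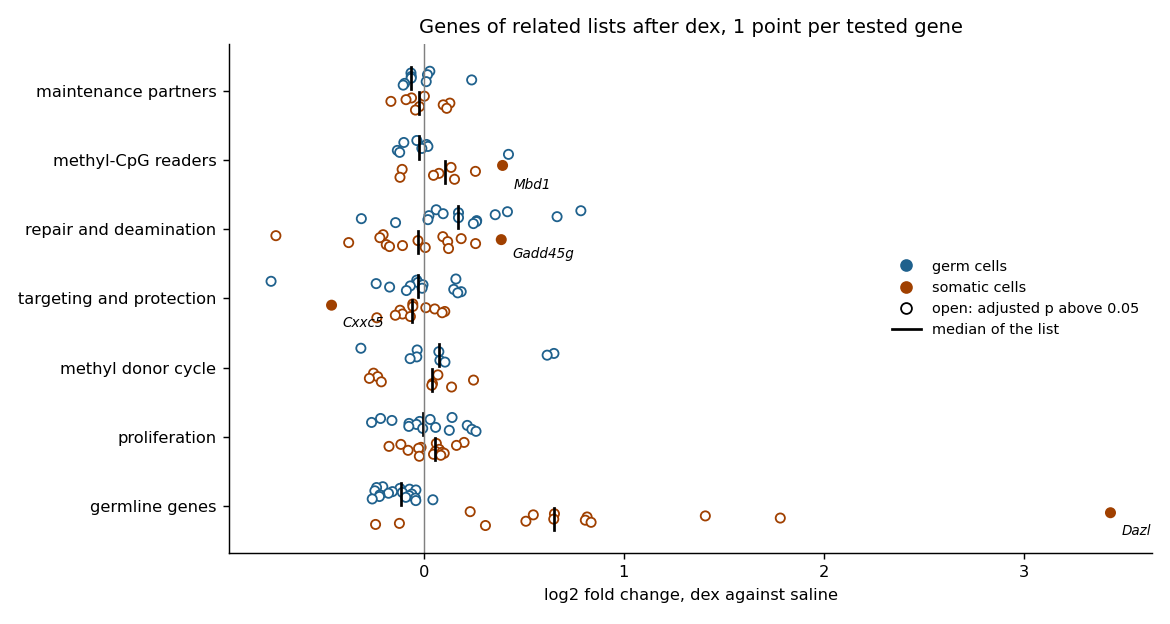
Log2 fold change of dex against saline (x axis) for every tested gene of 7 lists (y axis), 1 point per gene, in germ and somatic cells, with a bar at the median of the list. Filled and named points had an edgeR adjusted p of at most 0.05, which were Mbd1, Gadd45g, Cxxc5 and Dazl, all in somatic cells. The germline genes that passed the low-count filter in somatic cells have a median of 0.65, which depends in part on that filter.

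The gene most like each enzyme in pattern was taken from 16139 candidates by Pearson's r of log2 CPM over the 12 libraries. These were Plekha8 for Uhrf1 (r = 0.999), Zadh2 for Tet1 (r = 0.999), D130017N08Rik for Tdg (r = 0.997), Mgrn1 for Dnmt3a (r = 0.997), Kcnj10 for Dnmt1 (r = 0.973), Six4 for Tet2 (r = 0.961), Pttg1 for Dnmt3b (r = 0.914) and Pcnx for Tet3 (r = 0.888). The libraries fall into 2 cell types, so genes that differ between these in the same way have a high r, and the lowest 2 values belong to Dnmt3b and Tet3, which were not called between them. The values are a description with no test.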

How the data were processed

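Per the submitters' processing notes and the methods of the study, poly-A RNA was reverse transcribed with random hexamers, read pairs were aligned to mm10 with HISAT2 2.0.5, and the authors counted reads per gene with featureCounts 1.5.0-p3. These deposited counts were used as they stood for all tests. The deposited FPKM values were made by the authors by scaling these counts to gene length and sequencing depth. Tables of the authors' own DESeq2 1.20.0 comparisons (fold changes and p-values) were not used.

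Here, edgeR 4.0.16 (R 4.3.3) fitted quasi-likelihood models with TMM scaling and filterByExpr, two-sided, adjusted over all genes tested, with no covariate. Only the 6 libraries of a comparison entered its fit, except for the difference of the dex effects (12). The code was tested on simulated counts. DESeq2 1.42.0, other scalings and filters, a replicate block, 1 fit over all libraries and the removal of each library were alternatives. Replicate numbers were not treated as pairs in the main fits. Promoters came from RefSeq and exons from GENCODE on GRCm38. Named were all 9 enzymes, list genes called after dex, and for each list the 2 largest rises and falls between cell types called in both treatments. Other markers (Csf1r, Adgre1, Wnt4, Pdgfra, Cspg4, Cdh5, Emcn, Tek, Dnd1, Ddx4, Sycp3, Mael, Pou5f1) were chosen after their values were seen. The enzymes and lists were chosen with earlier results of these data known.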

Additional observations from a re-analysis of the deposited data

Results flagged for a closer look

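For 3 germline genes the dex effect differed between the cell types in the test of the difference over all 12 libraries, taken as germ cells minus somatic cells on the log2 scale. The difference was -3.56 for Dazl, and its adjusted p stayed between 4.48e-97 and 8.73e-09 in 18 alternatives. For Mov10l1 it was -1.91, with an adjusted p up to 0.0938, and for Hormad1 it was -1.66, with an adjusted p up to 0.0948. Those last 2 lost their calls in 4 and 8 of the 18 alternatives, each time with 1 library left out. Somatic levels were low, at most 1.97 CPM for Mov10l1 and 1.90 CPM for Hormad1, against 516 to 580 CPM and 518 to 686 CPM in germ cells. In somatic libraries the germ cell markers stood at a median of 0.0712% to 0.268% of their germ cell level in saline and 0.0608% to 0.439% in dex. The part of residual germ cell RNA in the Mov10l1 and Hormad1 differences was not tested. None of the 8 enzymes tested was called in this comparison.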

How the results depend on the processing

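Of the 8 enzymes tested, the 6 calls between cell types in saline libraries and the somatic call of Tet1 kept their direction and side of the threshold in 13 alternatives each, and in dex libraries only the call of Tet2 was lost, in 2 of 13. The values that turned sign belong to enzymes that were not called in either setting and lay near 0. With library totals only, these were Uhrf1 in germ cells after dex (0.008762), Dnmt1 (-0.01683), Tet3 (-0.013) and Tdg (-0.003343) in somatic cells after dex, Dnmt1 in the difference of the effects (0.04484) and Dnmt3b between saline cell types (-0.0168). Dnmt3b also turned with no low-count filter (-0.02368) and with a minimum mean of 1 CPM (-5.956e-05). With 1 library left out, the germ cell dex values ran from -0.03529 to 0.05454 for Dnmt1, -0.0388 to 0.02701 for Uhrf1, -0.1037 to 0.09761 for Dnmt3b and -0.1654 to 0.04176 for Tdg. The somatic values ran from -0.04212 to 0.08191 for Dnmt1 and -0.02577 to 0.1014 for Tdg, the differences from -0.06843 to 0.04002 for Dnmt1 and -0.2054 to 0.00507 for Tdg, and the saline cell type values from -0.1229 to 0.06638 for Dnmt3b and -0.0395 to 0.1745 for Tet3. Between 1 and 2 enzymes were called in somatic cells with 1 library left out, the second being Dnmt3a.

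Counts over all genes moved more, and the cause was not tested. In germ cells after dex 35 genes were called, but 159 in DESeq2, 420 with no low-count filter, 64 in 1 fit over all libraries, and 17 to 81 with 1 library left out (81 without dex replicate 1, 17 without dex replicate 2 or saline replicate 3). In somatic cells 1354 were called, but 803 in 1 fit over all libraries and 754 to 1881 with 1 library left out (754 to 888 without dex replicate 2 or any 1 of the saline replicates). The difference gave 314, but 647 in DESeq2, 727 with no low-count filter and 143 to 383 with 1 library left out (143 to 200 without germ cell dex replicate 2 or 3, germ cell saline replicate 3, somatic dex replicate 1 or 2, or somatic saline replicate 2 or 3). Library totals moved the share of higher calls from 42.9% to 53.8% in germ cells and from 30.3% to 46.1% in the difference. That share was 67.2% in germ cells in 1 fit over all libraries, and without germ cell dex replicate 1 it was 74.1% in germ cells and 53.3% in the difference.

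Same-numbered libraries deviated together weakly (r from -0.0156 to 0.197, and from 0.0676 to 0.107 for germ against somatic cells). Libraries of different numbers were not compared in this way, so whether a number marks a pair was not tested. With the replicate block 49, 1520 and 313 genes were called in germ cells, somatic cells and the difference, and no call of an enzyme changed. Dnmt3l, with at most 4 counts per library, is limited by depth.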
